A study of Mus musculus with 6 samples.

Results

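The atypical cadherins of the Fat and Dachsous families and their kinase *Fjx1* were examined in satellite cells, muscle's resident stem cells, taken straight from the tissue. The 7 genes *Fat1*, *Fat2*, *Fat3*, *Fat4*, *Dchs1*, *Dchs2* and *Fjx1* were taken by symbol from 54115 annotated genes, and 5 of them were among the 17152 genes with enough reads to be tested. RNA was sequenced from 3 Pax7KR and 3 Pax7WT samples of C57BL/6J mice aged 6 to 8 weeks. Pax7KR mice are homozygous for a CRISPR/Cas9 edit, made in zygotes, that puts an arginine in place of an acetylated lysine of PAX7, and Pax7WT mice are their littermates without it. The edit is in the germline, so it is not restricted to satellite cells. Both genotypes were left uninjured, and cells were sorted from hindlimb muscle as positive for α7-INTEGRIN and CD34 and negative for CD31, CD11b, SCA-1 and CD45. PAX7 is the transcription factor that marks satellite cells, and the comparison asks which genes differ when this lysine cannot be acetylated. The deposited values hold no bases, and the edit itself could not be read from them.

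FAT4 and DCHS1 are very large transmembrane cadherins that bind each other across neighbouring cells as receptor and ligand. FJX1, the relative of Drosophila four-jointed, is a Golgi kinase that phosphorylates cadherin repeats and so tunes that binding. In flies the pathway orients cells within a tissue (planar cell polarity) and restrains growth through the Hippo kinases. In mammals FAT1 is known for actin organization and, in skeletal muscle, for the migration of muscle precursors in the face and shoulder.

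Satellite cell genes were abundant in all 6 libraries, with *Pax7* at 1410 to 1666 CPM and *Chodl* at 1989 to 2478 CPM. CPM are estimated reads brought to a common library size with TMM factors. Depth was 17822367 to 27908054 estimated reads per library. Pax7KR replicate 2 stood apart in the Y-linked genes, which were looked at after their values had been seen. *Ddx3y* was at 52.0 CPM there against 117 to 135 CPM in the other 5 libraries, and *Kdm5d* was at 26.0 CPM against 58.7 to 70.9 CPM. *Xist*, an X-linked RNA, was at 0.88 CPM there, within the 0.437 to 2.29 CPM of the other 5. What set Pax7KR replicate 2 apart was not tested. The fold changes of *Fat4*, of the other tested members (as ranges) and of the 4 pathway genes below with an unadjusted p under 0.05 and no overlap are therefore also given with that library left out. Nothing in the labels says whether the samples of a genotype came from separate mice, so the p-values measure the spread between these samples.

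The genes are unusually built. The coding sequence of the main *Fat4* transcript is 14943 bases in 17 exons, of which a single exon holds 5175 coding bases. That of *Fat1* is 13770 bases in 27 exons, and that of *Dchs1* is 9873 bases in 21 exons. *Fjx1* has 1 exon with 1350 coding bases. For these lengths a given number of reads corresponds to few molecules, so levels of different genes are compared below per transcript length, as TPM, the share of all transcripts after correction for length.

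Of the 31-base words of *Fat4* transcripts, 8.19% also occurred in transcripts of other genes, most of them in C230034O21Rik, which overlaps *Fat4* on the opposite strand and held 0 to 4 estimated reads per library. The share was 2.77% for *Fat1* and 4.86% for *Dchs1*, most of them in Gm2366 and Gm15645, both with 0 reads. No such word was shared between any of the 7 genes, so reads could not be exchanged within the family through exact matches of that length.

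Stretches of mouse sequence (GRCm38, plus strand) are shown here because the *Fat1* transcripts described below differ by them and because the upstream sequence of *Fat4* is the window searched for a homeodomain core. In the alternative exon, capitals mark the 36 bases present in only 1 of the 3 coding transcripts of *Fat1* that took reads, between 12 bases of each neighbouring exon. The exon has the length of 12 codons, which keeps the frame, but the capitals need not begin at the first base of a codon. In the boundary, capitals mark the first 12 bases of the second exon of the *Fat1* transcript with the upstream start, which lie just before the annotated start of the other 2, and the lower-case bases are intron. In the upstream window of *Fat4*, the 250 bases before its RefSeq start, capitals mark the 11 CG pairs.
Fat1 alternative exon, chr8:45049842-45049877: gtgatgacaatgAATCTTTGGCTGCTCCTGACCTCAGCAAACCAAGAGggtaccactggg
Fat1 boundary, chr8:44950178-44950207: cttcttcttctattacagGTGGCCAGGAGT
Fat4 upstream window, chr3:38886690-38886939: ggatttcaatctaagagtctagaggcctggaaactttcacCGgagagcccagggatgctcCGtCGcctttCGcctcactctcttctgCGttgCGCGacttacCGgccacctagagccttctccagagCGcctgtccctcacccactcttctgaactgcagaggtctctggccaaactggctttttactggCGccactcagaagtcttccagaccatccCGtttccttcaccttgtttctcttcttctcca

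RefSeq windows of 250 bases (GRCm38.p6) were held for 5 of the 7 genes, without *Dchs1* and *Fjx1*. PAX7 carries a homeodomain, and TAAT is the core that many homeodomains bind. TAAT on either strand occurred in 54.9% of 32851 such windows, and TAATTA, which contains it, in 4.84%. The *Fat4* window held 0 matches to TAAT, as did those of *Fat3* and *Dchs2*, while that of *Fat1* held 1 and that of *Fat2* held 4. TAATTA was found in 0 of the 5 windows. The *Fat1* window ends at the boundary shown above, where the intron's last bases are ag and that second exon begins. Its 1 match begins 19 bases before the window's end and lies in that intron. The *Fat2* window (chr11:55312258-55312507) lies inside the gene, downstream of the start of its other annotated transcript. These are letters in one window per gene, and they say nothing about binding elsewhere.

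*Fat4* (ENSMUSG00000046743, chr3:38886940-39011985, plus strand) was the only tested member whose groups did not overlap in CPM. It was at 65.3, 64.1 and 75.7 CPM in the 3 Pax7WT libraries and at 80.6, 110 and 108 CPM in the 3 Pax7KR libraries, on 1136 to 2619 estimated reads. Every Pax7KR library lay above every Pax7WT library, with Pax7KR replicate 1 the lowest of its group. The means were 68.4 ± 6.36 CPM (SD, n = 3) in Pax7WT and 99.3 ± 16.2 CPM (SD, n = 3) in Pax7KR, a 1.45-fold difference (95% interval 1.19 to 1.77). On the log2 scale the difference was 0.54 (SE 0.12, unadjusted p = 0.00248). It did not pass correction over all genes (adjusted p = 0.959, edgeR quasi-likelihood test with Benjamini-Hochberg adjustment). In that test 0% of all genes had an adjusted p under 0.1. An unadjusted p under 0.05 was reached by 2.26% of genes in the higher direction and by 2.43% in the lower direction. Every Pax7KR value lay above every Pax7WT value in 5.14% of genes and below in 5.19%. By unadjusted p *Fat4* ranked 41 of 17152.

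How firmly *Fat4* was called depended on the fit. DESeq2, which the study used in an earlier version, gave an adjusted p of 0.0128, with a log2 fold change of 0.54. With a length offset, of the kind tximport supplies, DESeq2 gave an adjusted p of 0.0459. The study loaded its data with tximport and does not state whether its DESeq2 fit used that offset. Without Pax7KR replicate 1, edgeR gave an adjusted p of 0.0421 with a log2 fold change of 0.67. Over all settings the adjusted p ran from 4.993e-09, with no filter on low reads, to 0.9999, without Pax7KR replicate 2. The fit with no filter called 157 genes, against 0 in the main fit. Pax7KR replicate 2 is the library that stood apart in the Y-linked genes. Without it the log2 fold change was 0.46 (unadjusted p = 0.0053, edgeR). The largest unadjusted p with 1 library left out was 0.0194, without Pax7WT replicate 2 (edgeR). The direction was higher in Pax7KR in each of 17 alternative settings. Among 3850 genes within 2-fold of *Fat4* in mean CPM, 10, *Fat4* included, had a log2 fold change as high or higher. Among all 17152 tested genes, at any level, 1165 did. *Fat4* is among the genes the study displayed as changed on these same libraries, so its direction here is not independent evidence.

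**Figure D1:**
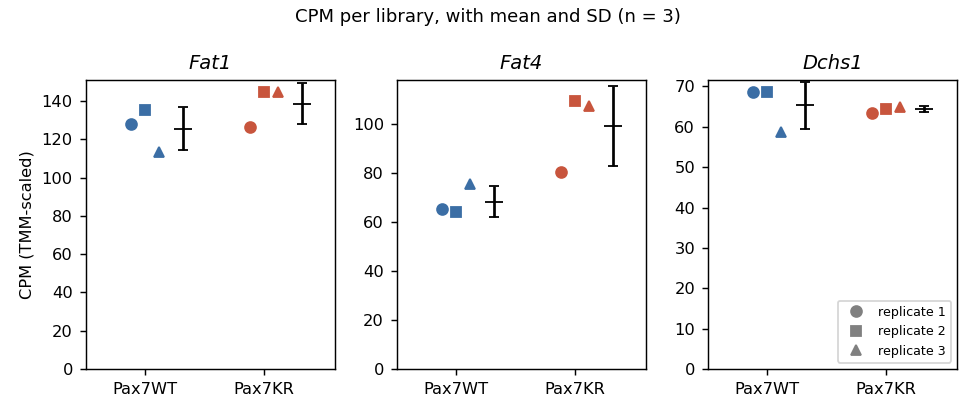
CPM (y axis, from 0) of *Fat1*, *Fat4* and *Dchs1* in the 3 Pax7WT and 3 Pax7KR libraries, with 1 point per library shaped by replicate number, and the mean with its SD in black. For *Fat4* the 3 Pax7KR points sit at 80.6 to 110 CPM, above the Pax7WT points at 64.1 to 75.7 CPM, while for *Fat1* and *Dchs1* the groups overlap.

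*Fat1* (ENSMUSG00000070047, chr8:44935447-45052257, plus strand) was the other receptor with many reads. It was at 128, 135 and 113 CPM in Pax7WT and at 126, 145 and 145 CPM in Pax7KR, on 2325 to 3487 estimated reads. Pax7KR replicate 1 lay inside the Pax7WT range and the other 2 Pax7KR libraries above it. The means of 126 ± 11.3 and 139 ± 10.7 CPM (SD, n = 3 each) differed by 0.14 on the log2 scale (SE 0.08, edgeR adjusted p = 0.992). The 95% interval of the fold was 0.981 to 1.24, so a difference of the size seen in *Fat4* lies outside it. Per length the groups of *Fat1* did not overlap, at 12.7 to 14.4 TPM in Pax7WT and 15.3 to 17.3 TPM in Pax7KR, so whether they overlap depended on the scale used. These TPM include a short transcript of 693 bases that keeps an intron and took at most 0.29% of *Fat1* reads. It held 0.569, 0 and 0.452 TPM in Pax7WT and 0.886, 0.987 and 1.35 TPM in Pax7KR. The gap between 14.4 and 15.3 TPM therefore rests in part on few reads, and the length offset below uses the same TPM. TPM of the coding transcripts alone were not compared. How many of all genes were without overlap in TPM was not counted. With a length offset the log2 fold change was 0.20 (unadjusted p = 0.0377, adjusted p = 0.962, edgeR).

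The remaining receptors, *Fat2* and *Fat3*, were close to undetected. *Fat3* (ENSMUSG00000074505, chr9:15910189-16501285, minus strand), which is known from neurons, had 0, 6 and 7 estimated reads in Pax7WT and 0, 9 and 3 in Pax7KR, with replicate 1 at 0 in both genotypes. Its log2 fold change was −0.30 with a 95% interval of −3.04 to 2.43, so a change was not detectable at this depth. *Fat2* (ENSMUSG00000055333, chr11:55250609-55336564, minus strand), known from the cerebellum and epithelia, had 3 reads in Pax7WT replicate 2, 1 in Pax7KR replicate 3 and 0 elsewhere, and was not tested. A count of 0 allows up to 3 reads, which is 0.108 to 0.169 CPM in these libraries. This limit covers counting error only.

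Among the ligands, *Dchs1* (ENSMUSG00000036862, chr7:105752990-105787654, minus strand) was at 68.7, 68.6 and 58.7 CPM in Pax7WT and at 63.5, 64.4 and 65.0 CPM in Pax7KR, on 1204 to 1868 estimated reads. All 3 Pax7KR libraries lay within the Pax7WT range. On the log2 scale the difference was −0.02 (SE 0.07, edgeR adjusted p = 0.998), and the 95% interval of the fold was 0.881 to 1.10. *Dchs2* (ENSMUSG00000102692, chr3:83127948-83357209, plus strand) had 2, 1 and 4 reads in Pax7WT and 2, 0 and 7 in Pax7KR, 16 in all, and was not tested.

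*Fjx1* (ENSMUSG00000075012, chr2:102449366-102452499, minus strand), the kinase, had 4, 5 and 6 reads in Pax7WT and 6, 3 and 2 in Pax7KR. Its groups overlapped, and its log2 fold change of −0.54 had a 95% interval of −2.51 to 1.43 (adjusted p = 0.998, edgeR).

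**Figure D2:**
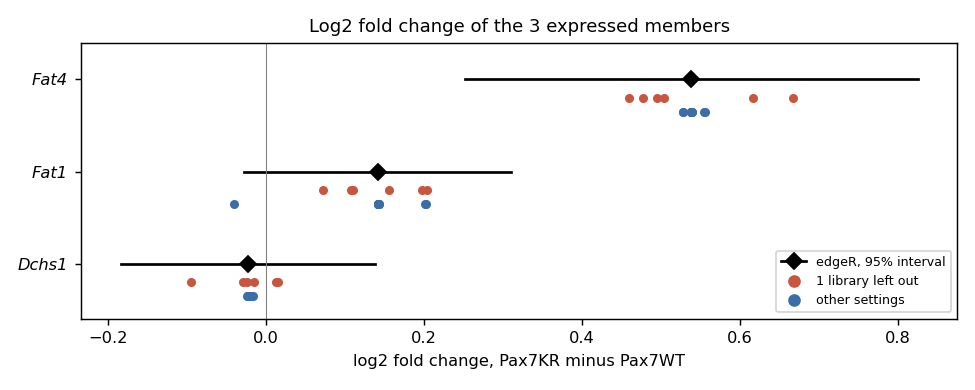
Log2 fold change (x axis, Pax7KR minus Pax7WT) of *Fat4*, *Fat1* and *Dchs1*. Diamonds with lines are the edgeR values with their 95% interval, red points the same fit with 1 library left out, and blue points the other settings. *Fat4* ran from 0.46 to 0.67 over all settings, *Fat1* from −0.04 to 0.20 and *Dchs1* from −0.09 to 0.02.

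Per length, 3 genes carried the family in satellite cells. Over the 6 libraries *Fat1* was at 15.2 ± 1.79 TPM, *Dchs1* at 11.1 ± 1.13 TPM and *Fat4* at 8.63 ± 2.31 TPM (SD, n = 6), and together they held at least 99.2% of the family's summed TPM in every library. *Fat1* lay above *Dchs1* in each library, and its lowest value of 12.7 TPM was just above the highest of *Dchs1*, 12.6 TPM. Of that highest value, in Pax7WT replicate 1, 1.81 TPM came from a short transcript described below. *Dchs1* and *Fat4* were neighbours whose ranges overlapped, with *Fat4* at 6.39 to 11.6 TPM and *Dchs1* at 9.22 to 12.6 TPM. Then came *Fjx1*, at 0.155 ± 0.0511 TPM in Pax7WT and 0.108 ± 0.0612 TPM in Pax7KR (SD, n = 3 each). *Fat3*, *Dchs2* and *Fat2* were last, each with at least 1 library at 0, and their order could not be told apart. Of all tested genes, 54.9% lay below *Fat1* in TPM, 48.8% below *Dchs1*, 45.0% below *Fat4* and 3.10% below *Fjx1*. The expressed members are thus mid-range genes in these cells. In comparison the classical cadherin *Cdh15* (M-cadherin), a marker of satellite cells, was at a mean of 256 TPM, and the delta protocadherin *Pcdh7* at 30.96 TPM.

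**Figure D3:**
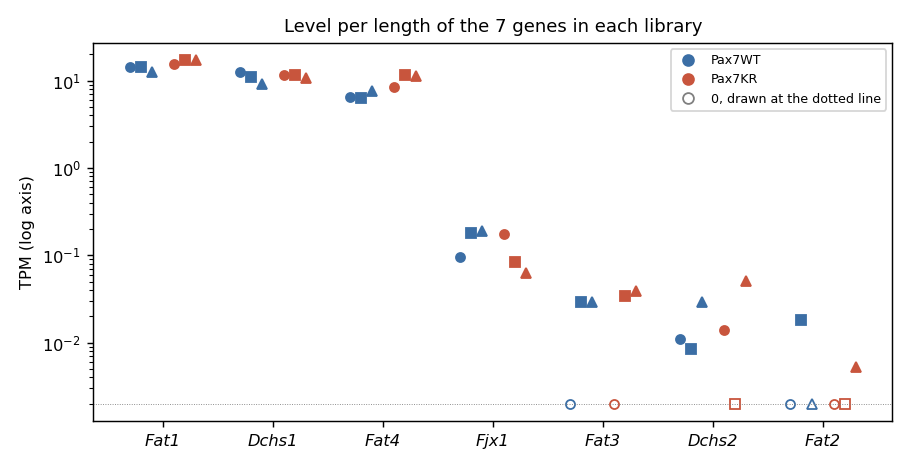
TPM (log y axis) of the 7 genes in each library, Pax7WT in blue and Pax7KR in red, shaped by replicate number, with values of 0 drawn as open symbols on the dotted line. *Fat1*, *Dchs1* and *Fat4* sit between 6.39 and 17.3 TPM in all libraries, and the other 4 genes below 0.2 TPM.

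The balance of receptor to ligand was described as a ratio of TPM within each library. *Fat4* over *Dchs1* was 0.513, 0.581 and 0.827 in Pax7WT and 0.734, 1.00 and 1.06 in Pax7KR. The groups overlapped, since Pax7WT replicate 3 lay above Pax7KR replicate 1. A short annotated transcript of *Dchs1*, of 743 bases, took at most 0.93% of its reads. It added 1.81, 0.385 and 0 TPM in Pax7WT and 1.09, 1.16 and 0.234 TPM in Pax7KR. The main *Dchs1* transcript alone was at 10.8, 10.4 and 9.22 TPM in Pax7WT and at 10.4 TPM in each Pax7KR library. The ratio on main transcripts alone was not computed. *Fat4* was at or above its ligand gene in Pax7KR replicates 2 and 3 and below it in the other 4 libraries. *Fat4* over *Fat1* was 0.448, 0.444 and 0.602 in Pax7WT and 0.554, 0.672 and 0.655 in Pax7KR, again with overlap. The summed TPM of the 7 genes was 29.8 to 33.5 in Pax7WT and 35.5, 40.5 and 39.2 in Pax7KR, without overlap. That sum includes *Fat4*, already known to be higher on these libraries. The share of all genes without overlap in TPM was not counted. In bulk RNA, a change in the number of expressing cells and in RNA per cell cannot be told apart.

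Each of *Fat4* and *Dchs1* was read almost wholly as 1 transcript. It took 99.1% to 100% of the estimated reads of *Fat4* and 99.1% to 100% of those of *Dchs1*. *Fat1* was split among 3 coding transcripts. The upstream-start transcript begins 14761 bases before the other 2, with a first exon of 175 bases. Of those 2, the exon-containing transcript contains the 36-base exon shown above and the plain transcript lacks it. In Pax7WT, the upstream-start transcript took 39.3%, 55.7% and 35.3% of *Fat1* reads, and in Pax7KR 18.3%, 60.1% and 34.7%. The exon-containing transcript took 24.3%, 37.2% and 48.1% in Pax7WT and 22.4%, 32.5% and 65.0% in Pax7KR. At most 0.29% went to the short transcript that keeps an intron. The plain transcript took the rest, from 0% in Pax7KR replicate 3 to 59.1% in Pax7KR replicate 1. The groups overlapped for all 3, and the spread within Pax7KR exceeded the difference between genotypes.

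The split itself is an estimate. Only 187 bases at the 5′ end, the upstream exon and the 12 bases in capitals of the boundary, separate the upstream-start from the plain transcript, in transcripts of 14814 and 14627 bases. No annotated transcript has both the upstream exon and the 36-base exon, so reads from such a molecule would have to be divided between the others. Counting only the upstream-start transcript, which took the most reads over the 6 libraries, turned the *Fat1* log2 fold change to −0.04.

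**Figure D4:**
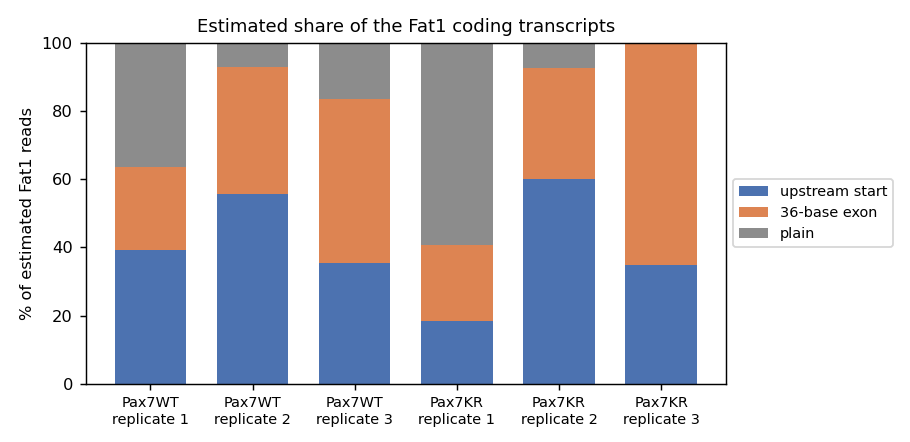
Estimated share of *Fat1* reads (y axis, percent) assigned to its upstream-start, 36-base-exon and plain transcripts in each of the 6 libraries. Within Pax7KR the share of the upstream-start transcript runs from 18.3% to 60.1% and that of the plain transcript from 0% to 59.1%.

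Genes known to act with Fat and Dachsous proteins inside the cell were read as a list of 14, all tested. By edgeR 0 of 14 had an adjusted p under 0.1, 7 lay above and 7 below a log2 fold change of 0, and the median was −0.0011 against −0.0037 over all genes. *Lix1*, the vertebrate relative of fly lowfat, which binds the intracellular parts of Fat and Dachsous, stood apart. It was at 39.2, 31.7 and 39.0 CPM in Pax7WT and at 23.9, 23.4 and 24.5 CPM in Pax7KR, so all Pax7KR libraries were lower. On the log2 scale it differed by −0.62 (SE 0.10, unadjusted p = 2.914e-05, adjusted p = 0.302, edgeR), the smallest unadjusted p of any gene tested. Without Pax7KR replicate 2 it was −0.60 (adjusted p = 0.412, edgeR). *Lix1* is also among the genes the study displayed as changed on these libraries. *Amotl1*, which encodes an angiomotin that can bind YAP, came next, with a log2 fold change of −0.19 (unadjusted p = 0.146, edgeR). *Fbxl7*, whose fly relative is a ubiquitin ligase acting downstream of Fat, had −0.25 (unadjusted p = 0.245, edgeR).

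The Hippo kinase module, 20 genes and all tested, was evenly split with 10 above and 10 below 0. The groups did not overlap for 2 genes in the higher and 1 in the lower direction, against 5.14% and 5.19% of all genes, and 0 had an adjusted p under 0.1 by edgeR. *Mob1b*, a cofactor of the LATS kinases, was at 64.6 ± 1.37 CPM in Pax7WT and 54.9 ± 2.99 CPM in Pax7KR (SD, n = 3 each), a difference of −0.24 on the log2 scale (SE 0.07, unadjusted p = 0.00425, adjusted p = 0.992, edgeR). Without Pax7KR replicate 2 it was −0.20. *Limd1* and *Wtip*, of the Ajuba family of LATS inhibitors, had log2 fold changes of 0.18 and 0.14 (unadjusted p = 0.0763 and 0.165, edgeR). The 3 Pax7KR values of *Wtip* lay above those of Pax7WT, and those of *Limd1* overlapped.

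Among 13 effectors and targets of the pathway, 7 lay above and 6 below 0, the median was 0.02, and 0 had an adjusted p under 0.1 by edgeR. *Yap1* and *Wwtr1* (TAZ), the transcriptional coactivators that Hippo kinases restrain, had log2 fold changes of 0.07 (SE 0.06) and 0.02 (SE 0.09) with overlapping groups. *Tead3*, a DNA-binding partner of YAP and TAZ, was at 48.9 ± 1.05 CPM in Pax7WT and 55.0 ± 2.04 CPM in Pax7KR (SD, n = 3 each), with groups that did not overlap (log2 fold change 0.17, unadjusted p = 0.0258, adjusted p = 0.992, edgeR). Without Pax7KR replicate 2 it was 0.18. *Tead1*, of the same family, overlapped between the groups, at 32.8 to 52.7 CPM in Pax7WT and 47.8 to 99.0 CPM in Pax7KR. The target genes *Ccn1* and *Ccn2* had log2 fold changes of −0.13 (SE 0.41) and −0.05 (SE 0.13).

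Of 15 core planar cell polarity genes 14 were tested, with 6 above and 8 below 0, a median of −0.04 and 0 adjusted p under 0.1 by edgeR. In 3 genes every Pax7KR value was lower (5.19% of all genes) and in 1 every value was higher (5.14% of all genes). *Vangl1*, a transmembrane polarity protein, was at 12.3, 11.9 and 10.1 CPM in Pax7WT and at 8.05, 8.42 and 8.94 CPM in Pax7KR. The difference was −0.43 on the log2 scale (SE 0.14, unadjusted p = 0.00887, adjusted p = 0.992, edgeR). Without Pax7KR replicate 2 it was −0.43. Its relative *Vangl2*, which is known from the planar division of satellite cells, had −0.14 (unadjusted p = 0.183, edgeR), with all Pax7KR values below those of Pax7WT. *Ankrd6* (Diversin) had −0.43 (unadjusted p = 0.042, edgeR) with overlap, and *Dvl3*, a Dishevelled, −0.14 (unadjusted p = 0.0624, edgeR) without overlap.

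Other cadherins gave the frame for the family. Of 8 tested classical cadherins 7 lay above 0, with a median of 0.08, and of 8 tested delta protocadherins 7 lay below 0, with a median of −0.27. Both medians moved with single libraries. That of the classical cadherins was 0.17 without Pax7WT replicate 2 and 0.19 without Pax7KR replicate 3, and that of the delta protocadherins was −0.14 without Pax7WT replicate 1. With a length offset the delta protocadherin median went the other way, to −0.40 in both edgeR and DESeq2. In both lists 0 genes had an unadjusted p under 0.05 and 0 were without overlap. The smallest unadjusted p among classical cadherins was 0.209 (*Cdh11*, log2 fold change 0.40), followed by *Cdh4* and *Cdh6*. Among delta protocadherins it was 0.0666 (*Pcdh7*, −0.15), followed by *Pcdh18* (−0.75) and *Pcdh17* (−0.62), both named by the study. Of the 5 tested family members and these 16 cadherins, 1 gene, *Fat4*, was without overlap, against 5.14% of all genes in the higher and 5.19% in the lower direction, so this count does not set the family apart.

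**Figure D5:**
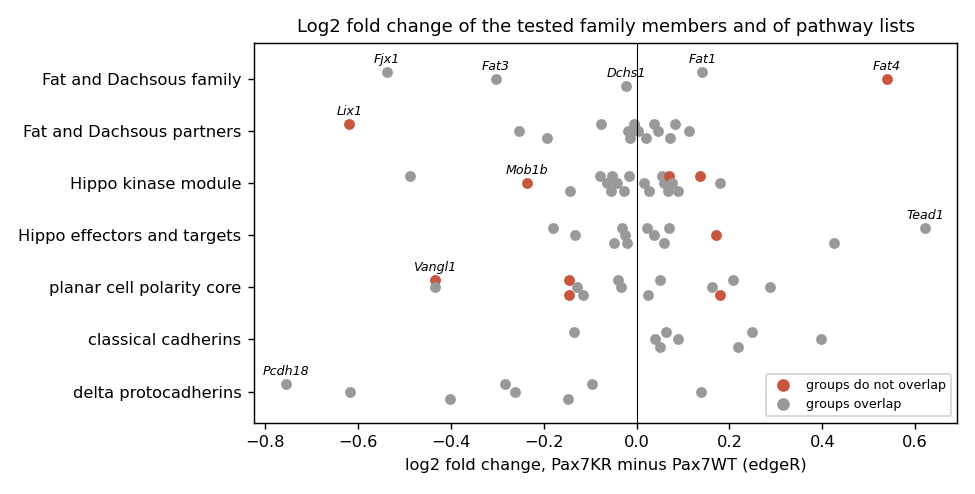
Log2 fold change (x axis, Pax7KR minus Pax7WT, edgeR) of the 5 tested family members and of the tested genes in 6 lists, 1 point per gene, red where every Pax7KR value lay on one side of every Pax7WT value. *Fat4* at 0.54 and *Lix1* at −0.62 lie on opposite sides, and the lists have medians from −0.27 to 0.08.

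The summed markers of each of 8 cell types overlapped between the genotypes. The summed CPM of 10 satellite cell markers was 7879 to 8610 in Pax7WT and 8351 to 8634 in Pax7KR. The 10 fibro-adipogenic markers summed to 1959 to 2100 and 1978 to 2082 CPM, mostly *Col3a1*, at 1258 to 1411 CPM. *Dpt* was at 571 to 633 CPM and *Dcn* at 24.7 to 45.3 CPM. *Pdgfra*, which defines those cells, was at 1.51 to 3.81 CPM. Endothelial markers summed to 311 to 395 CPM in Pax7WT and 347 to 478 CPM in Pax7KR, the highest in Pax7KR replicate 2, which was also the highest for *Fat4*. *Tek*, at 184 to 231 CPM, held 46.3% to 69.2% of that sum. The other 9 endothelial markers summed to 103, 127 and 188 CPM in Pax7WT and to 187, 257 and 131 CPM in Pax7KR, which overlapped. Smooth muscle and pericyte markers summed to 2505 to 2860 and 2332 to 2567 CPM, mostly *Notch3*, which satellite cells also express. Tenocyte markers summed to 39.1 to 80.3 and 50.9 to 53.7 CPM, Schwann and glial markers to 75.0 to 104 and 60.3 to 90.8 CPM, and myofibre markers to 52.1 to 58.4 and 42.6 to 59.0 CPM. Immune markers summed to 9.52 to 14.0 and 10.8 to 13.9 CPM, with *Cd3e* at 0 in every library. Single markers without overlap numbered 1 in each of the tenocyte and smooth muscle lists, both lower in Pax7KR, and 1 in the immune list, higher in Pax7KR, against 5.19% and 5.14% of all genes. The part of these cells in the *Fat4* difference was not tested.

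The genes whose profile over the 6 libraries was most like that of a member were listed by the root mean square difference of centred log2(CPM + 1) values, among 10839 genes with a mean of 5 CPM or more. For *Fat1* they were *Myo1e*, *Arhgap32*, *Mirg*, *Nudt22* and *Ddb2*, with differences of 0.0308 to 0.0438. For *Dchs1* they were *Map2k1*, *Edf1*, *Fbxw5*, *Cdv3* and *Fam160b1*, with differences of 0.0163 to 0.021. The *Dchs1* profile was nearly flat, so any flat gene resembles it.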

How the data were processed

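RNA was measured in 6 libraries grouped by the genotype in their labels. The authors quantified paired reads of 150 bases with salmon (version 1.3.0) against GENCODE transcripts with genome decoys, and deposited estimated counts and TPM per transcript. The deposited TPM, scaled by the authors for effective length and library, were summed per gene, and the deposited effective lengths served as offsets. The deposited table of the authors' own comparison (fold changes and p-values) was not used.

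Estimated counts were summed per gene and rounded. Of 140992 transcripts 139791 matched an earlier GENCODE release on GRCm38, and the rest held 0.606% of reads. The filter asked for at least 5 reads in at least 2 libraries, and the test was that of edgeR (version 4.0.16, quasi-likelihood, robust, TMM, two-sided) in R 4.3.3, with Benjamini-Hochberg adjustment over 17152 genes and a cut-off of 0.1. The spread between samples of a genotype, as the common biological coefficient of variation, was 13.8%. The steps were tested on simulated data. Every pair of libraries differed beyond counting noise (chi-square per gene at least 9.73).

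Named were all 7 members, from each list the 3 genes with the smallest unadjusted p and any past the cut-off, *Lix1*, *Yap1*, *Wwtr1* and *Vangl2*, the 5 genes most like each of the 2 most abundant members, and marker sums with defining genes. *Tead1*, *Ccn1*, *Ccn2*, *Cdh15*, *Tek*, *Col3a1*, *Dpt*, *Dcn*, *Xist* and the Y-linked genes were named after their values were seen. The members and lists were chosen with earlier results of these data known. Alternatives were DESeq2 (version 1.42.0), RLE and upper-quartile factors, no filter, 10 reads in every library, length offsets, no robust shrinkage, limma-voom (limma version 3.58.1), a replicate block, the most abundant transcript, a cut-off of 0.05, each library left out, and reads per kilobase for TPM.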

Additional observations from a re-analysis of the deposited data

How the results depend on the processing

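By edgeR 0 genes passed the cut-off and 803 had an unadjusted p under 0.05. DESeq2 called 30 genes (683 unadjusted), DESeq2 with a length offset 45, and edgeR with no filter 157. Leaving out 1 library gave 1 to 32 genes, with 32 without Pax7KR replicate 3. The other settings, except the replicate block given below, called 0. The log2 fold change of *Fat4* passed with DESeq2 (0.5387), with DESeq2 and a length offset (0.5558) and with no filter (0.5398), and ran from 0.46 to 0.6676 with 1 library left out. *Fat1* turned to −0.0404 with the most abundant transcript alone and ran from 0.0725 to 0.204 with 1 library left out. *Dchs1* ran from −0.0941 to 0.0154 with 1 library left out. *Fat3* turned to 0.1911 with a length offset in edgeR, 0.2464 with one in DESeq2 and 0.0065 with limma-voom, and ran from −1.5692 to 0.2698 with 1 library left out. *Fjx1* kept its direction, from −1.0597 to −0.2807 with 1 library left out. With at least 10 reads in every library, *Fat3* and *Fjx1* were not tested. Of 102 list medians under alternatives 93 kept within their limits, and 7 of 7 levels per length did so with reads per kilobase. The causes of these changes were not tested. Over all genes, libraries with the same replicate number did not deviate together (correlations of 0.002, 0.045 and −0.056). A correlation over all genes cannot show a batch that touches only part of them, so pairing remains undecided. With the replicate block 13 genes passed the cut-off, and *Fat4* had a log2 fold change of 0.5276 (adjusted p = 0.139, edgeR). *Fat2*, *Fat3*, *Dchs2* and *Fjx1* are limited by reads.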

Other observations

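The same search for similar profiles was run for *Fat4* after its values had been seen. The 5 genes nearest to it were *Coq8b*, *Il20rb*, *Chd5*, 4930481A15Rik and *Rpgrip1l*, with root mean square differences of 0.116 to 0.133 in centred log2(CPM + 1) over the 6 libraries, larger than those found for *Fat1* and *Dchs1*. Their mean levels were 8.61 to 19.7 CPM, below that of *Fat4*, and all 5 were higher in Pax7KR, which the search fixes. *Rpgrip1l* encodes a protein of the ciliary transition zone, and *Chd5* a chromatin remodeller.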
